A study of Mus musculus with 24 samples.

Results

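Fc receptors bind the constant part of antibodies and let a cell respond to whatever the antibody has coated. The 5 genes examined here were Fcgr1, Fcgr3 and Fcgr4, which encode the activating receptors for IgG in the mouse, Fcer1g, which encodes the gamma chain that carries and signals for those receptors, and Fcgr2b, which encodes the inhibitory receptor for IgG. They were chosen with earlier results of these data known, and were matched by symbol. All 5 matched a gene of the count table, and all 5 were among the 17579 of 49315 genes that passed the filter on low counts.

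When IgG on a target crosslinks an activating receptor, Src-family kinases phosphorylate the immunoreceptor tyrosine-based activation motif (ITAM) of the gamma chain, and the kinase Syk docks there. Signals below Syk lead to calcium release, actin remodelling, engulfment of the target and the oxidative burst. Fcgr2b binds the same antibodies but carries an inhibitory motif (ITIM) that recruits the lipid phosphatase SHIP1, so the balance of both kinds of receptor sets how strongly a cell reacts. Microglia, the resident macrophages of the brain, use these receptors to take up antibody-coated material such as myelin debris and protein deposits.

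RNA was sequenced from mouse brain microglia that had been sorted by flow cytometry for intermediate CD45 and for CD11b, in 24 libraries. Cre+ mice carried the tamoxifen-activated recombinase creERT2 under Cx3cr1, a gene of microglia and some other myeloid cells, to remove Dicer1, the ribonuclease that makes mature miRNAs. Cre- mice had no recombinase, are described as WT by the submitters, and were given tamoxifen too. Each genotype had 3 libraries in each of 4 states. Naive mice had tamoxifen alone. Demyelination followed 6 weeks of cuprizone, a copper chelator that kills oligodendrocytes. Remyelination followed 6 weeks of cuprizone and then 6 weeks of normal diet, in one pair of groups with tamoxifen at the start (4 to 5 weeks, without a stated zero point, as in the naive and demyelination groups as labelled) and in another pair with tamoxifen in week 5 of cuprizone, called the peak. Of age at sampling, the Dicer1 alleles and pooling of animals the sources say nothing, and the samples are called biological replicates without animal numbers. Cre+ and Cre- mice thus differed in the creERT2 insertion as well as in the planned loss of Dicer1.

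Remyelination libraries totalled 8.87 to 12.56 M counts (M for mega) and the other libraries 19.48 to 44.53 M, so in every comparison of remyelination with another state, state and depth cannot be told apart. Summed exon counts of Dicer1 gave no call of a fall in a Cre+ group and were higher in naive Cre+ libraries (log2 fold change 0.72 ± 0.16 SE, edgeR adjusted p = 0.00151), and they do not resolve a deleted segment. Cx3cr1 stood at 41.5% to 59.3% of the Cre- mean of the same state in 9 of 12 Cre+ libraries, but at 2.18% in naive Cre+ replicate 1 and at 1.87% and 1.61% in demyelination Cre+ replicates 1 and 3. Called genotype comparisons of the members that rest on these 3 low-Cx3cr1 libraries are given with and without them, or as a range over alternatives. So are most ratios. Several comparisons that were not called, and shares of a sum, are given with all libraries only. Summed over 12 markers, microglial genes held 37050 to 78740 CPM in the 24 libraries, against at most 5462 CPM for 10 neutrophil markers, 682.3 CPM for 9 monocyte markers, 540 CPM for 10 border macrophage markers and 7.36 CPM for 8 natural killer cell markers. In bulk RNA, fewer cells of a type and less RNA per cell cannot be told apart.

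Of the genes, Fcgr2b (ENSMUSG00000026656, chromosome 1, 170958617 to 170976547), Fcgr4 (ENSMUSG00000059089, 171018920 to 171029761), Fcgr3 (ENSMUSG00000059498, 171051174 to 171064935) and Fcer1g (ENSMUSG00000058715, 171229572 to 171234365) lie near each other on chromosome 1 of GRCm38, and Fcgr1 (ENSMUSG00000015947, 96282909 to 96293969) lies on chromosome 3. Fcgr4 is on the plus strand and the other members on the minus strand. Fcgr2b and Fcgr3 share sequence: 166 of the 1733 windows of 50 bases in Fcgr3 transcripts (9.58%) and of the 5685 in Fcgr2b transcripts (2.92%) are identical between them, while every other pair of members shares 0 windows. The sources do not say how reads that match both genes were counted, so part of the counts of this pair is uncertain. Fcgr3 was the more abundant of both (mean of 2883 CPM against 564.2 CPM of Fcgr2b in naive Cre- libraries), so that part may weigh more on Fcgr2b. Its size was not tested, and all values of Fcgr2b and ratios over it carry this limit. A further 155 exon bases of Fcgr2b overlap the antisense gene Gm38204.

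The motifs that set the activating and inhibitory chains apart are shown as coding sequence of GRCm38, with each tyrosine codon of the motif in capitals. The ITAM of Fcer1g spans codons 65 to 79 across exons 4 and 5 of 5 (minus strand, chr1:171229889-171230072, an intron between them left out). The ITIM of Fcgr2b spans codons 317 to 322 in exon 8 of 8 (minus strand, chr1:170961071-170961088).
Fcer1g ITAM: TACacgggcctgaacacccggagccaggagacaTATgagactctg
Fcgr2b ITIM: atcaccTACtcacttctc
The coding sequences of Fcgr1, Fcgr2b, Fcgr3 and Fcgr4 hold 0 matches to the ITAM pattern. The looser ITIM pattern also matched 2 stretches of Fcgr1 and 1 each of Fcgr4 and Fcer1g by letters alone.

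The promoters of Fcgr1, the activating receptor that was higher in naive Cre+ microglia, of Fcgr2b, the inhibitory receptor that was lower there, and of Fcgr4, which differed most between states, are shown for the 250 bases before the RefSeq start (GRCm38.p6). Capitals mark matches on either strand to TTCNNNGAA, the palindromic STAT element of interferon gamma signalling, and to GAGGAA, the core bound by the myeloid factor PU.1, which reads TTCCTC on the other strand.
Fcgr1 promoter, chr3:96293970-96294219, minus strand: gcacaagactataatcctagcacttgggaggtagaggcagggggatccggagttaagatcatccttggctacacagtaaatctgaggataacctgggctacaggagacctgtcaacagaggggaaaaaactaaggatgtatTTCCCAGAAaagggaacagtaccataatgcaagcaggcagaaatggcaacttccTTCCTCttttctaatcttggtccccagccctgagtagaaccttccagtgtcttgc
Fcgr2b promoter, chr1:170976072-170976321, minus strand: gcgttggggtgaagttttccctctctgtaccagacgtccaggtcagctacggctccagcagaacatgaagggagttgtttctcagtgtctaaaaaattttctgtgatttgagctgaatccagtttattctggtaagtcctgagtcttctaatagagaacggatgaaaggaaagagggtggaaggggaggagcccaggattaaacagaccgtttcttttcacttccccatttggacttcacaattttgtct
Fcgr4 promoter, chr1:171018676-171018925, plus strand: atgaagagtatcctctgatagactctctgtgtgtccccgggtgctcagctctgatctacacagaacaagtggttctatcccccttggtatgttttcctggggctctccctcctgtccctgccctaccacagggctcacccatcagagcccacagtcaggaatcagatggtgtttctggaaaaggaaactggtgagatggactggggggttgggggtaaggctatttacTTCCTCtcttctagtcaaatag
Fcgr1 held TTCCCAGAA 109 bases and TTCCTC 55 bases before the start, Fcgr4 held TTCCTC 22 bases before it, and Fcgr2b held 0 matches. Fcgr3 had 2 listed RefSeq starts, of which only the first was searched, and held TTCCTC 6 bases before that start. Fcer1g held 0 matches. The windows of Fcgr2b and Fcgr3 lie inside the gene spans given above, so sequence before a start further upstream was not searched. No match overlapped another. Windows of the same length held TTCNNNGAA in 7.18% and GAGGAA in 23.1% of 27025 genes, so a match is a description of letters and not a site.

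**Figure D1:**
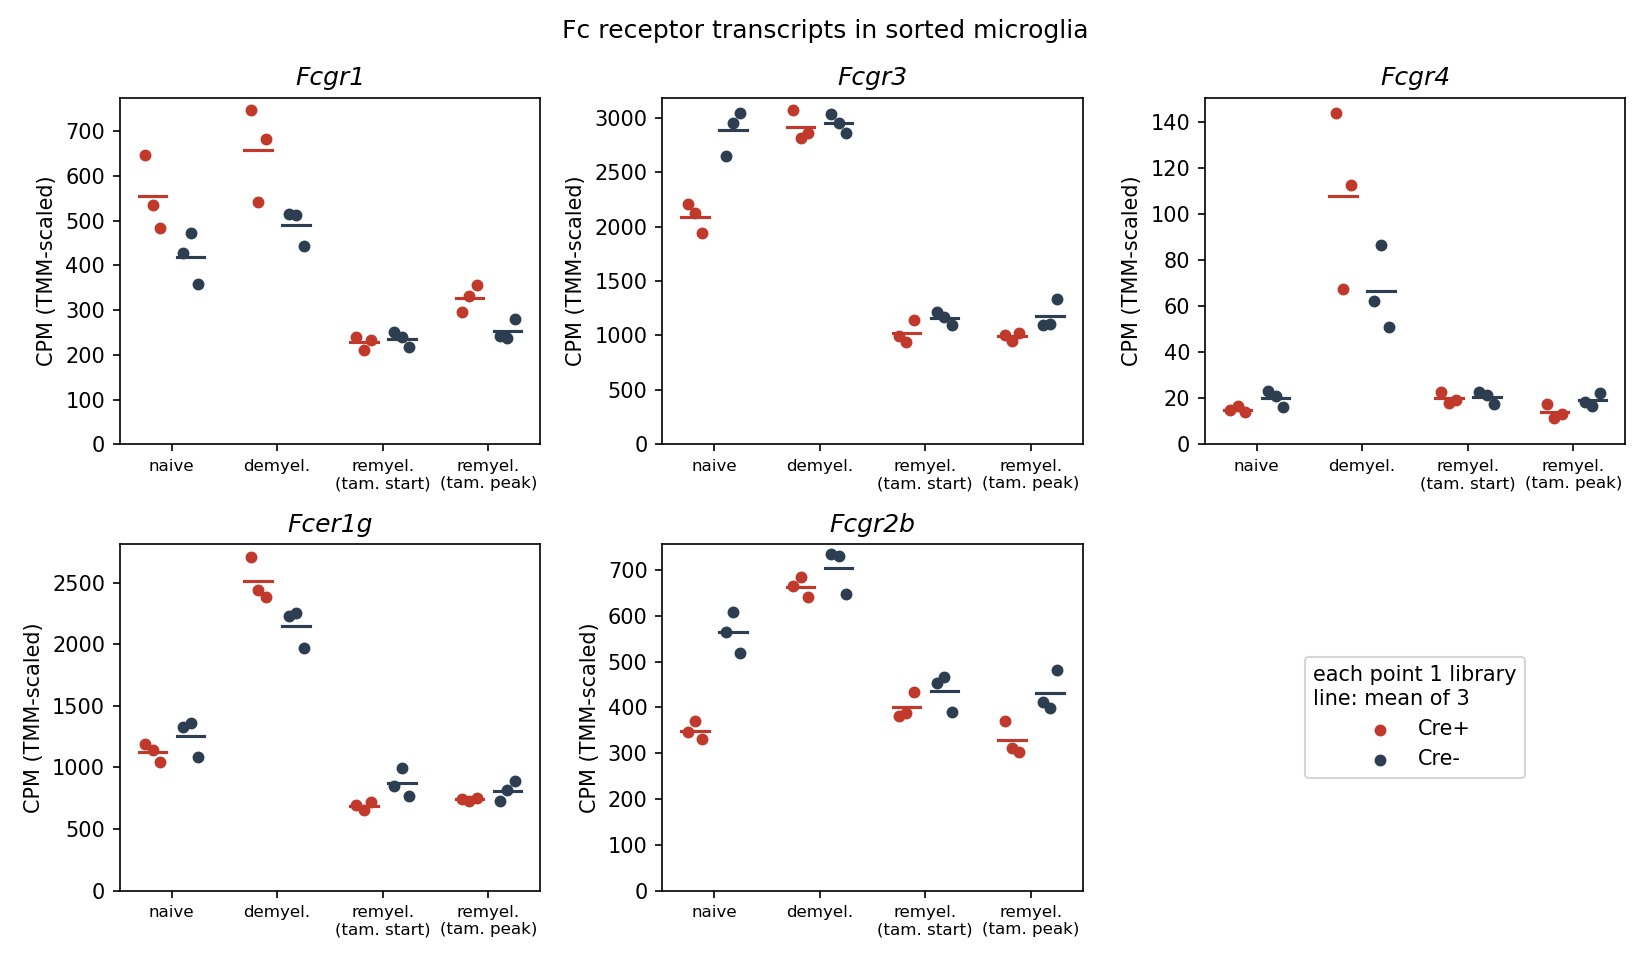
TMM-scaled counts per library total (CPM, linear axis from 0) of each Fc receptor gene, 1 point per library and a line at the mean of 3, with Cre+ left of Cre- in each state. Fcgr1 sits higher in Cre+ than in Cre- libraries in naive, demyelination and peak-tamoxifen groups, Fcgr2b sits lower in naive and peak-tamoxifen Cre+ libraries, and Fcgr4 is high in the demyelination groups.

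The levels of the 5 genes spanned a wide range within a state. Per kilobase of exon, naive Cre+ libraries held 1288 ± 86.2 CPM of Fcer1g, 1204 ± 76.7 of Fcgr3, 214 ± 32.3 of Fcgr1, 60.3 ± 3.39 of Fcgr2b and 12.01 ± 1.10 of Fcgr4 (SD, n = 3). Naive Cre- libraries held 1441 ± 174 CPM per kilobase of Fcer1g, 1661 ± 118 of Fcgr3, 162 ± 21.9 of Fcgr1, 97.4 ± 7.60 of Fcgr2b and 16.1 ± 2.80 of Fcgr4. Fcgr3 and Fcer1g were neighbours whose levels did not differ beyond their spread in naive Cre+ libraries. In demyelination Fcer1g stood first, at 2873 ± 201 CPM per kilobase in Cre+ and 2463 ± 185 in Cre- libraries, and Fcgr3 followed at 1678 ± 81.4 and 1699 ± 52.3. Fcgr4, the rarest transcript, reached 86.1 ± 30.6 CPM per kilobase in demyelination Cre+ and 53.2 ± 14.4 in demyelination Cre- libraries, which was still under Fcgr2b at 115 ± 3.90 and 122 ± 8.43.

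The comparison of naive Cre+ with naive Cre- mice asked how the genotypes differ in resting microglia. The activating receptor Fcgr1 was higher in Cre+ microglia, while the inhibitory receptor Fcgr2b and the activating receptor Fcgr3 were lower. Of the 5 genes, 1 rose and 2 fell, in a state where 28.3% of all tested genes differed (14.7% higher and 13.7% lower). The median log2 fold change was -0.41 over the members and -0.01 over all tested genes.

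Fcgr1, the high-affinity IgG receptor, held 646.7, 535.5 and 483.2 CPM in Cre+ libraries, against 427.3, 471.9 and 359.4 CPM in Cre- libraries. Every Cre+ library lay above every Cre- library, and the highest was the low-Cx3cr1 library. The log2 fold change was 0.40 ± 0.12 (SE, edgeR adjusted p = 0.0154). It was 0.25 (edgeR adjusted p = 0.149) without the low-Cx3cr1 libraries, 0.27 (0.134) without naive Cre+ replicate 1 alone and 0.30 (0.0943) without naive Cre- replicate 3, and 0.40 (0.0515) in a fit of the compared groups alone.

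Fcgr2b, the ITIM receptor shown above, held 347.0, 369.8 and 330.6 CPM in Cre+ libraries, against 565.5, 607.5 and 519.6 CPM in Cre- libraries. The groups were far apart and each was narrow. Fcgr2b fell by 0.69 ± 0.10 on the log2 scale (SE, edgeR adjusted p = 1.54e-05). It was called in all 13 alternatives tried, with log2 fold changes of -0.76 to -0.63 and an edgeR or DESeq2 adjusted p of at most 0.00123. Border macrophages, another cell type with Fc receptors, had marker sums of 16.57 to 20.92 CPM in Cre+ libraries, against 22.3 to 31.34 CPM in Cre- libraries, and their part in the Fcgr2b values was not tested.

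Fcgr3, the low-affinity activating receptor with the most counts of the family, held 2203, 2126 and 1944 CPM in Cre+ libraries, against 2652, 2952 and 3045 CPM in Cre- libraries. The groups did not overlap, and Fcgr3 fell by 0.46 ± 0.09 (SE, edgeR adjusted p = 0.000586). With GC content and length corrected the log2 fold change was -0.23 (edgeR adjusted p = 0.0632). Without the low-Cx3cr1 libraries it was -0.54 (edgeR adjusted p = 0.000686).

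Fcer1g and Fcgr4 were not called. Fcer1g, the ITAM chain, held 1190, 1144 and 1043 CPM in Cre+ libraries, against 1331, 1362 and 1084 CPM in Cre- libraries (log2 -0.16, 95% interval -0.38 to 0.06, edgeR adjusted p = 0.265). Fcgr4, which binds mouse IgG2 subclasses, held 14.84, 16.58 and 13.85 CPM in Cre+ libraries, against 23.11, 21.20 and 16.30 CPM in Cre- libraries. Its log2 fold change was -0.41, with a 95% interval of -0.92 to 0.09 (edgeR adjusted p = 0.210), and the groups overlapped only through the lowest Cre- library.

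Genes around the receptors were called in both directions in naive microglia. Of 5 tested genes among 12 other Fc and Fc receptor-like genes, 2 fell and 1 rose. Fcgrt, the neonatal Fc receptor that recycles IgG inside cells, held 59.95 ± 14.3 CPM in Cre+ and 210.3 ± 14.7 CPM in Cre- libraries (SD, n = 3; log2 -1.81, edgeR adjusted p = 5.07e-08). Fcrls, a microglial Fc receptor-like gene, held 2072 ± 632 CPM in Cre+ and 4964 ± 322 CPM in Cre- libraries (log2 -1.26, edgeR adjusted p = 6.83e-06), and Fcrl1 rose by 0.63.

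Of 10 tested ITAM adaptors and proximal kinases 3 rose, namely the kinase genes Src (log2 1.22), Yes1 (0.72) and Syk (0.44), and 2 fell, among them Tyrobp (-0.61), which encodes the partner ITAM adaptor DAP12. Below Syk, 8 of 21 genes rose and 2 fell. The guanine nucleotide exchange factor gene Sos1 (0.98), the phospholipase gene Plcg1 (0.85) and Malt1 (0.71) were higher, and Lat2 (-0.81), a transmembrane adaptor, was lower. Of 15 actin and engulfment genes 7 rose and 0 fell, with Rac1 at 1.58, Elmo1 at 0.63, Was at 0.49 and Dock2 at 0.41.

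On the inhibitory side, 4 of 9 other ITIM receptor genes fell and 1 rose. Cd22 (-2.63), Pecam1 (-0.94) and Cd300a (-0.37) were lower and Siglece (0.70) was higher. Of 11 genes of ITIM signalling and braking enzymes only 1 was called, Pag1, an adaptor for the kinase Csk, at 0.45. The NADPH oxidase subunit genes Ncf1 (0.51) and Cyba (-0.36) were called in opposite directions among 5. Of 13 genes of interferon gamma response and Fcgr regulation, 2 rose and 3 fell, with Jak2 at 1.19, Ifngr2 at 0.84, Ifngr1 at -0.40 and the target gene Cxcl10 at -1.32. All of these were read from the same edgeR fit, and the counts stand beside the 14.7% and 13.7% of all genes that rose and fell. Every surrounding gene named for this state kept its call and direction without the low-Cx3cr1 libraries. The actin list then had 5 higher in place of 7. Fewer genes were also called higher below Syk (7) and lower among adaptors and kinases (1).

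**Figure D2:**
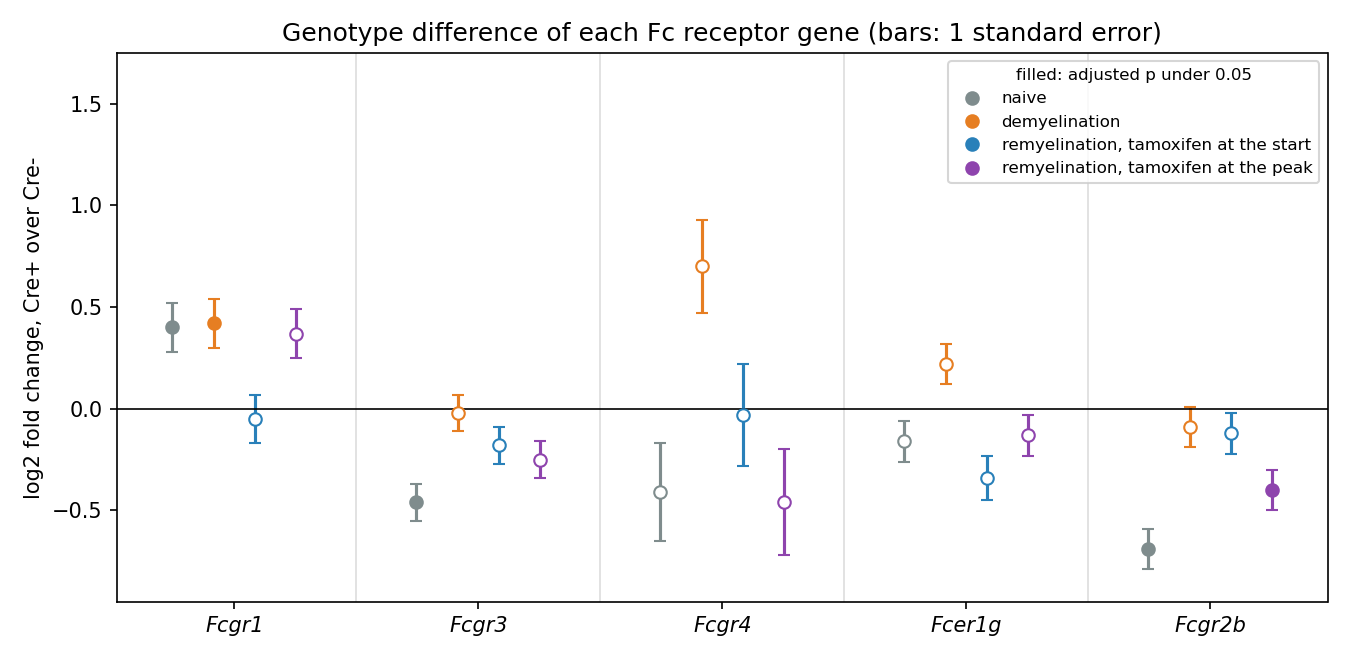
Fitted log2 fold change of Cre+ over Cre- for each Fc receptor gene in each state, with bars of 1 standard error and filled points where the edgeR adjusted p was under 0.05. Fcgr1 is positive in 3 of 4 states (0.40, 0.42 and 0.37) and Fcgr2b is lowest in naive (-0.69) and peak-tamoxifen (-0.40) libraries.

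The demyelination comparison asked how the genotypes differ after 6 weeks of cuprizone. Fcgr1 was higher in Cre+ microglia here as well, Fcgr2b and Fcgr3 were not called, and 1 of the 5 genes rose and 0 fell. In this comparison 9.17% of all tested genes were called, 5.69% higher and 3.48% lower. The median log2 fold change was 0.22 over the members and -0.01 over all tested genes.

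Fcgr1 held 747.7, 541.4 and 682.5 CPM in Cre+ libraries, against 514.5, 513.1 and 443.3 CPM in Cre- libraries. The low-Cx3cr1 libraries, replicates 1 and 3, were the highest, and replicate 2 stood just above the Cre- libraries. The log2 fold change was 0.42 ± 0.12 (SE, edgeR adjusted p = 0.0312). Without the low-Cx3cr1 libraries it was 0.18 (edgeR adjusted p = 0.868), with a single Cre+ library whose spread was taken to be that of the remaining groups. The call also ended without Cre+ replicate 1 (0.32, edgeR adjusted p = 0.220) or 3 (0.41, 0.0963) and without Cre- replicate 1 (0.47, 0.0543), 2 (0.47, 0.0602) or 3 (0.36, 0.143).

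Fcgr4 held 144.0, 67.49 and 113.0 CPM in Cre+ libraries, against 62.54, 86.55 and 51.17 CPM in Cre- libraries. Again the high values were the low-Cx3cr1 libraries, and replicate 2 lay within the Cre- range. The log2 fold change of 0.70 ± 0.23 did not pass the threshold (SE, edgeR adjusted p = 0.0588). It was 0.06 without the low-Cx3cr1 libraries and 0.96 without Cre+ replicate 2 (edgeR adjusted p = 0.00187), and it was called without Cre- replicate 2 (0.94, 0.0281), with DESeq2 (0.74, adjusted p = 0.0100), with RLE size factors (0.74, 0.0427) and without the filter on low counts (0.75, 0.0334).

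Fcer1g held 2711, 2440 and 2383 CPM in Cre+ libraries, against 2232, 2259 and 1967 CPM in Cre- libraries, without overlap. Its log2 fold change of 0.22 ± 0.10 was not called (SE, edgeR adjusted p = 0.202). Neutrophils carry Fcer1g, Fcgr3 and Fcgr4, and their 10 markers summed to 1756, 1579 and 1399 CPM in demyelination Cre+ libraries, against 227.7, 625.7 and 930.7 CPM in Cre- libraries. The groups did not overlap, with a median log2 fold change of 1.31 and 0 of the 10 markers called by edgeR or DESeq2 (0 at an unadjusted p under 0.05), and the part of this difference in the values of Fcer1g and Fcgr4 was not tested. Monocyte markers, 3 of 9 of which fell, summed to 211.0 to 264.7 CPM in Cre+ libraries, against 132.6 to 255.1 CPM in Cre- libraries, and border macrophage markers to 156.9 to 169.0 CPM in Cre+ libraries, against 213.2 to 249.8 CPM in Cre- libraries.

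Fcgr3 held 3074, 2811 and 2855 CPM in demyelination Cre+ libraries, against 3037, 2955 and 2855 CPM in Cre- libraries (log2 -0.02, 95% interval -0.22 to 0.18). Fcgr2b held 665.2, 685.1 and 640.0 CPM in Cre+ libraries, against 734.6, 731.2 and 648.4 CPM in Cre- libraries (log2 -0.09, 95% interval -0.30 to 0.12). Both pairs of groups overlapped, and the intervals leave out the falls of 0.46 and 0.69 fitted in naive microglia.

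The difference of the genotype effect between demyelination and naive was tested directly. It was positive and called for 3 of the 5 genes and negative for 0, against 15.8% of all tested genes called (7.97% positive and 7.78% negative). For Fcgr2b it was 0.61 ± 0.14 (SE, edgeR adjusted p = 0.00504), and it was called in all 19 alternatives, at 0.55 to 0.72. For Fcgr3 it was 0.45 ± 0.13 (edgeR adjusted p = 0.0225) and for Fcgr4 1.11 ± 0.33 (edgeR adjusted p = 0.0261). Fcgr1 (0.02 ± 0.17, 95% interval -0.35 to 0.39) was not called. Fcer1g (0.38 ± 0.15, edgeR adjusted p = 0.0786) was not called either, but was with RLE size factors (0.46, 0.0392), without the filter on low counts (0.46, 0.0313), with DESeq2 (0.46, 0.0163) and without naive Cre- replicate 3 (0.49, 0.0196). With GC content and length corrected the Fcer1g difference turned direction, at -0.06, the lowest of its 19 alternatives.

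The differences of Fcgr3 and Fcgr4 were less firm. Without the low-Cx3cr1 libraries they were 0.51 (edgeR adjusted p = 0.0611) and 0.49 (0.394), and with GC content and length corrected they were 0.14 (0.540) and 0.72 (0.145). Fcgr3 also lost its call without naive Cre- replicate 2 (0.43, edgeR adjusted p = 0.0502), naive Cre+ replicate 3 (0.39, 0.0683) or demyelination Cre+ replicate 1 (0.41, 0.0533). Fcgr4 lost its call without any one of naive Cre- replicates 1 and 2, naive Cre+ replicate 3, demyelination Cre- replicates 1 and 3 and demyelination Cre+ replicate 1 (0.86 to 1.08, edgeR adjusted p from 0.0553 to 0.0687), and in a fit of the compared groups alone (1.10, 0.0771).

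Among the surrounding genes in demyelination, the other ITIM receptors had 4 lower and 0 higher of 9, with a median of -0.46. The paired immunoglobulin-like receptor gene Pirb held 50.11 ± 5.77 CPM in Cre+ and 83.87 ± 4.76 CPM in Cre- libraries (SD, n = 3; log2 -0.74, edgeR adjusted p = 0.000378), and Cd22 (-0.93), Clec4a2 (-0.48) and Cd300a (-0.46) were lower too. Of the oxidase genes, Cybb, the catalytic subunit, held 204.2 ± 38.3 CPM in Cre+ and 448.6 ± 69.9 CPM in Cre- libraries (log2 -1.14, edgeR adjusted p = 0.0126), while Ncf1 was higher (0.45).

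Below Syk, 3 of 21 genes were lower (Vav2 at -0.86, Blnk at -0.37 and Prkcd at -0.28) and 0 higher. Of 15 actin genes 2 were higher, Rac2 at 0.55 and Arpc2 at 0.29, and among 10 adaptors and kinases Yes1 was the single edgeR call (0.41). Fcgrt was lower (-0.53). In the interferon gamma list, Gbp2 (0.81) and the receptor chain gene Ifngr2 (0.61) rose, while the class II transactivator gene Ciita (-1.21) and Ifngr1 (-0.36) fell. Of 11 braking enzymes 0 were called by edgeR or DESeq2 (3 at an unadjusted p under 0.05). DESeq2 called 4 actin genes and 3 adaptors and kinases higher. With the low-Cx3cr1 libraries left out, and thus a single Cre+ library, edgeR called 0 genes of these lists, with 0 to 2 per list at an unadjusted p under 0.05. Gbp2 was then at 0.00, Ifngr2 at 0.22, Ncf1 at 0.17 and Yes1 at 0.15, while Pirb was at -0.60, Cybb at -0.82, Vav2 at -0.92 and Ciita at -1.24.

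With tamoxifen at the start and 6 weeks of recovery, 0 of the 5 Fc receptor genes were called by edgeR (1 at an unadjusted p under 0.05) and 1, Fcer1g, by DESeq2, which gave no adjusted p for Fcgr4. In this comparison only 0.0341% of all tested genes passed (6 genes, all higher), with 1657 at an unadjusted p under 0.05 and 65 called by DESeq2, of which only 6.2% were higher. DESeq2 gave an adjusted p for only 1901 genes here, against 17579 with edgeR, so the calls of both tools are not like for like. The median log2 fold change was -0.12 over the members and -0.04 over all tested genes. In the 8 other lists of genes around the receptors 0 were called by edgeR as well, with 0 to 5 genes per list at an unadjusted p under 0.05, while DESeq2, which gave no adjusted p for some of them, called 1 of 15 actin genes lower and 1 of 11 braking enzymes higher.

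Fcer1g came nearest. It held 695.2, 650.5 and 717.8 CPM in Cre+ libraries, against 846.9, 994.8 and 768.0 CPM in Cre- libraries, so the groups did not overlap. The log2 fold change was -0.34 ± 0.11 (SE, edgeR adjusted p = 0.275, DESeq2 adjusted p = 0.0497 over 1901 genes). The highest Cre- library, replicate 2, also had the highest neutrophil marker sum of these groups, 4304 CPM, against 391.4 to 1133 CPM in Cre+ libraries and 561.2 and 1817 CPM in the other Cre- libraries, and its part in the difference was not tested.

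Fcgr1 held 239.3, 210.5 and 234.0 CPM in start-tamoxifen Cre+ libraries, against 251.6, 239.1 and 217.8 CPM in Cre- libraries (log2 -0.05, 95% interval -0.32 to 0.21). Fcgr2b held 380.7, 387.9 and 434.2 CPM in Cre+ libraries, against 453.4, 467.2 and 389.1 CPM in Cre- libraries (log2 -0.12, 95% interval -0.34 to 0.09). Fcgr3 ran between 935.0 and 1146 CPM in Cre+ libraries, against 1097 to 1211 CPM in Cre- libraries, and Fcgr4 between 18.11 and 22.91 CPM in Cre+ libraries, against 17.36 to 22.77 CPM in Cre- libraries. These 4 genes overlapped between the genotypes.

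The genotype effect on Fcer1g differed between start-tamoxifen remyelination and demyelination by -0.56 ± 0.15 (SE, edgeR adjusted p = 0.0352), the 1 call among the 5 genes, where 3.74% of all tested genes were called (2.94% negative). It was -0.52 (edgeR adjusted p = 0.329) without the low-Cx3cr1 libraries and -0.36 (0.0605) with GC content and length corrected. The call also ended without any one of start-tamoxifen Cre- replicates 1 and 2, start-tamoxifen Cre+ replicates 1 and 2, demyelination Cre- replicates 1, 2 and 3 and demyelination Cre+ replicate 1 (-0.60 to -0.45, edgeR adjusted p from 0.0552 to 0.136). Fcgr1 had a difference of -0.47 ± 0.18 (edgeR adjusted p = 0.127), and it was called without demyelination Cre+ replicate 2 (-0.60, 0.0350) and without the filter on low counts (-0.49, 0.0493). Fcgr4 had -0.72 ± 0.34 (edgeR adjusted p = 0.255), and -0.98 (0.0345) without demyelination Cre+ replicate 2. That replicate was the demyelination Cre+ library that was not low in Cx3cr1. Over all alternatives the difference ran from -0.60 to -0.20 for Fcgr1 and from -0.98 to -0.04 for Fcgr4.

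The peak-tamoxifen comparison asked how the genotypes differ after recovery when tamoxifen is given later, in week 5 of cuprizone. Fcgr2b was lower in Cre+ microglia, as in the naive state, and it was the 1 call among the 5 genes. Of all tested genes 11% were called, 6.99% higher and 4.02% lower. The median log2 fold change was -0.25 over the members and -0.01 over all tested genes.

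Fcgr2b held 370.1, 310.2 and 303.4 CPM in Cre+ libraries, against 411.8, 399.5 and 482.2 CPM in Cre- libraries. The groups did not overlap, and Fcgr2b fell by 0.40 ± 0.10 (SE, edgeR adjusted p = 0.0112). The call ended without Cre+ replicate 2 (-0.35, edgeR adjusted p = 0.0663), Cre+ replicate 3 (-0.34, 0.0799) or Cre- replicate 3 (-0.30, 0.0644).

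Fcgr1 held 296.5, 331.1 and 355.2 CPM in peak-tamoxifen Cre+ libraries, against 242.0, 237.7 and 281.3 CPM in Cre- libraries. The groups did not overlap here either, but the log2 fold change of 0.37 ± 0.12 did not pass the threshold (SE, edgeR adjusted p = 0.0556). It was called without the filter on low counts (0.35, edgeR adjusted p = 0.0249), with DESeq2 (0.36, 0.0495), with GC content and length corrected (0.41, 0.0196), without Cre- replicate 3 (0.46, 0.0334) and without Cre+ replicate 1 (0.44, 0.0360).

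Fcgr3 held 1008, 946.6 and 1022 CPM in Cre+ libraries, against 1097, 1107 and 1333 CPM in Cre- libraries, without overlap (log2 -0.25 ± 0.09, edgeR adjusted p = 0.0887, DESeq2 adjusted p = 0.0457). Fcer1g held 746.9, 726.0 and 753.6 CPM in Cre+ libraries, against 727.4, 817.0 and 886.6 CPM in Cre- libraries (log2 -0.13, 95% interval -0.35 to 0.10). Fcgr4 held 17.43, 11.35 and 13.16 CPM in Cre+ libraries, against 18.27, 16.86 and 22.47 CPM in Cre- libraries (log2 -0.46, 95% interval -1.01 to 0.09). Neutrophil marker sums were 479.4, 465.8 and 5462 CPM in Cre+ libraries, against 276.4, 182.9 and 299.3 CPM in Cre- libraries, with 1 of the 10 markers called higher by edgeR and 9 by DESeq2 (median log2 fold change 3.11). The Cre+ library with the high sum, replicate 3, had the highest Fcgr1 value of its group and the lowest Fcgr2b value, and the part of these cells in either was not tested.

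Among the surrounding genes, 4 of 9 other ITIM receptors fell and 1 rose with peak tamoxifen. Pirb held 37.26 ± 6.75 CPM in Cre+ and 77.36 ± 3.46 CPM in Cre- libraries (SD, n = 3; log2 -1.06, edgeR adjusted p = 4.13e-06). Cd22 (-2.16) and Cd300a (-0.32) were lower and Siglece (0.59) was higher. Tyrobp (-0.46), the adaptor gene Blnk (-0.41), Lat2 (-0.43) and Fcgrt (-0.58) fell. Yes1 (0.75), Ifngr2 (0.75), Fcrl1 (0.80), the phospholipase gene Plcg2 (0.56), Pag1 (0.31) and the actin genes Elmo1 (0.54), Rac2 (0.44) and Coro1a (0.37) rose. Of the 5 oxidase genes 0 were called by edgeR or DESeq2 (3 at an unadjusted p under 0.05).

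The difference of the genotype effect between peak and start tamoxifen was called for 0 of the 5 genes by edgeR or DESeq2 (1 at an unadjusted p under 0.05), where 3.77% of all tested genes were called (2.87% positive and 0.893% negative) and 3390 had an unadjusted p under 0.05. For Fcgr1 it was 0.42 ± 0.18 (SE, edgeR adjusted p = 0.185), with a 95% interval of 0.05 to 0.79 before adjustment, and for Fcgr2b it was -0.27 ± 0.14 (edgeR adjusted p = 0.299). The calls in one timing and not in the other are thus not shown to differ between the timings.

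**Figure D3:**
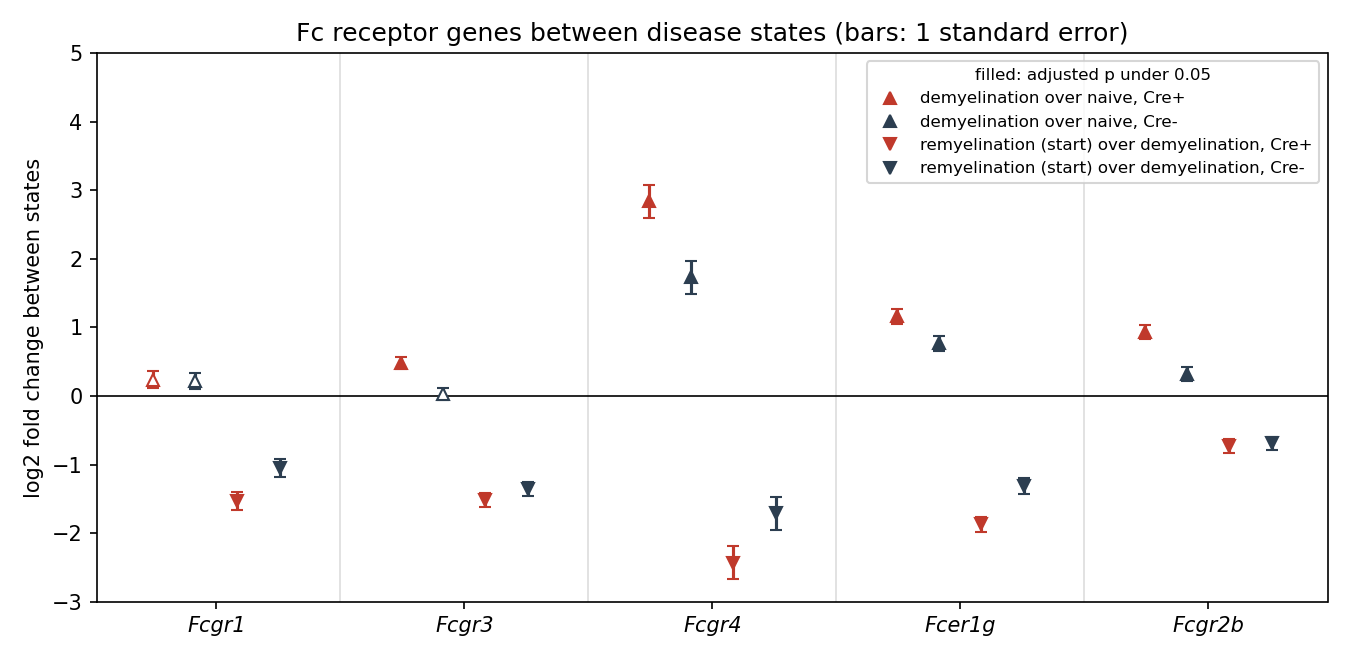
Fitted log2 fold change between states within each genotype for each Fc receptor gene, with bars of 1 standard error and filled markers where the edgeR adjusted p was under 0.05. Fcgr4 has the highest change into demyelination (2.84 in Cre+ and 1.73 in Cre- microglia), and all 5 genes are negative for start-tamoxifen remyelination over demyelination in both genotypes.

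Within each genotype, demyelination was compared with naive to follow the receptors into cuprizone injury. In Cre+ microglia 4 of the 5 genes rose and 0 fell, where 52.2% of all tested genes were called (26.3% higher and 25.9% lower). In Cre- microglia 3 rose and 0 fell, where 35.9% were called (19.7% higher). These comparisons share libraries with the genotype comparisons and with each other, so their values are given side by side.

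Fcgr4 differed most of the members. Its mean was 108.2 ± 38.5 CPM in demyelination and 15.09 ± 1.38 CPM in naive Cre+ libraries (SD, n = 3), a 7.15-fold difference (log2 2.84 ± 0.24 SE, edgeR adjusted p = 7.46e-09). In Cre- libraries it was 66.75 ± 18.1 CPM in demyelination and 20.20 ± 3.51 CPM in naive, a 3.31-fold difference (log2 1.73 ± 0.24, edgeR adjusted p = 8.41e-06). The lowest demyelination library of either genotype, at 51.17 CPM, stood above the highest naive library, at 23.11 CPM. Without the low-Cx3cr1 libraries the change in Cre+ was 2.20, and with GC content and length corrected it was 2.04 in Cre+ and 1.33 in Cre-.

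Fcer1g rose by 1.16 ± 0.11 in Cre+ (SE, edgeR adjusted p = 8.82e-10), with 2511 ± 176 CPM in demyelination and 1125 ± 75.3 CPM in naive libraries. In Cre- it rose by 0.77 ± 0.11 (edgeR adjusted p = 1.62e-06), with 2153 ± 161 CPM in demyelination and 1259 ± 153 CPM in naive libraries. Fcgr2b rose by 0.93 ± 0.10 in Cre+ (edgeR adjusted p = 1.78e-08), with 663.4 ± 22.6 CPM in demyelination and 349.1 ± 19.7 CPM in naive libraries. In Cre- it rose by 0.32 ± 0.10 (edgeR adjusted p = 0.0129), with 704.8 ± 48.8 CPM in demyelination and 564.2 ± 44.0 CPM in naive libraries, and this call ended without naive Cre- replicate 3 (0.26, 0.0808), demyelination Cre- replicate 1 (0.28, 0.0663) or 2 (0.29, 0.0608) and without the filter on low counts (0.27, 0.0655).

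Fcgr3 rose by 0.48 ± 0.09 in Cre+ (SE, edgeR adjusted p = 0.000113), with 2913 ± 141 CPM in demyelination and 2091 ± 133 CPM in naive libraries. In Cre- its change was 0.03, with a 95% interval of -0.17 to 0.23. With GC content and length corrected these values were -0.12 (edgeR adjusted p = 0.267) in Cre+ and -0.26 (0.0266) in Cre-, so the direction of Fcgr3 depended on that correction. The corrected changes of Fcer1g were 0.21 in Cre+ and 0.27 in Cre-. Fcgr1 was not called in either genotype (0.24 in Cre+, edgeR adjusted p = 0.101, and 0.22 in Cre-, 0.166), and in Cre+ it was 0.37 and called without naive Cre+ replicate 1 (edgeR adjusted p = 0.0218) or demyelination Cre+ replicate 2 (0.0180).

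Markers of other myeloid cells also differed between these states. Neutrophil sums were 1399 to 1756 CPM in demyelination and 135.9 to 530.8 CPM in naive Cre+ libraries, with 4 of 10 markers called higher by edgeR and 8 by DESeq2. In Cre- libraries they were 227.7 to 930.7 CPM in demyelination and 168.7 to 512.1 CPM in naive, with 3 markers called by edgeR and 4 by DESeq2. Monocyte sums were 211.0 to 264.7 CPM in demyelination and 32.76 to 87.03 CPM in naive Cre+ libraries, and 132.6 to 255.1 CPM in demyelination and 42.98 to 87.32 CPM in naive Cre- libraries. Of 6 dendritic cell markers edgeR called 3 higher and 1 lower in Cre+ and 2 higher in Cre-, and Itgax, which other myeloid cells also express, made up most of their sum in demyelination. Border macrophage sums were 156.9 to 249.8 CPM in demyelination and 16.57 to 31.34 CPM in naive libraries of both genotypes together. Their part in the receptor values was not tested.

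In start-tamoxifen remyelination relative to demyelination all 5 genes fell in both genotypes, where 30.8% of all tested genes fell and 32.5% rose in Cre+ and 28.3% fell in Cre- (63.3% and 54.7% called in either direction). Fcer1g held 687.8 ± 34.3 CPM in remyelination and 2511 ± 176 CPM in demyelination Cre+ libraries (SD, n = 3; log2 -1.87), and 869.9 ± 115 CPM in remyelination and 2153 ± 161 CPM in demyelination Cre- libraries (-1.31). In the main fit Fcgr4 had the steepest fall, -2.43 in Cre+ and -1.71 in Cre-, and Fcgr2b the shallowest, -0.73 in Cre+ and -0.69 in Cre-. Fcgr1 fell by 1.53 in Cre+ and by 1.05 in Cre-, and Fcgr3 fell by 1.51 in Cre+ and by 1.35 in Cre- (edgeR adjusted p of at most 7.12e-06 for all 10 values). The sizes depended on the processing. Under alternatives the smallest changes in Cre+ and Cre- were -1.52 and -0.98 for Fcgr4 and -1.04 and -0.68 for Fcer1g. They were -0.75 and -0.72 for Fcgr3, -1.15 and -0.71 for Fcgr1, and -0.68 and -0.63 for Fcgr2b.

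Start-tamoxifen remyelination also stood below the naive state for most of the family. In Cre+ microglia 3 of 5 genes were lower and 0 higher (57.9% of all tested genes called, 28.6% higher and 29.2% lower), namely Fcgr1 (log2 -1.28), Fcgr3 (-1.03) and Fcer1g (-0.71). In Cre- microglia 4 were lower and 0 higher (56.2% called, 28.8% higher and 27.4% lower), namely Fcgr3 (-1.31), Fcgr1 (-0.83), Fcer1g (-0.53) and Fcgr2b (-0.37). Fcgr4 was not called in either genotype (0.41 in Cre+ and 0.02 in Cre-). Fcgr2b was at 0.20 in Cre+ (edgeR adjusted p = 0.0897), where it was called with RLE size factors (0.24, 0.0430), DESeq2 (0.24, 0.0304), GC content and length corrected (0.28, 0.0152) or the compared groups alone (0.26, 0.0197). The last fit also called Fcgr4 in Cre+ (0.47, edgeR adjusted p = 0.00546). Library totals differ between these states as given above.

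Between the 2 remyelination groups, which have like totals, Fcgr1 was higher with peak than with start tamoxifen in Cre+ microglia. It held 327.6 ± 29.5 CPM with peak and 228.0 ± 15.3 CPM with start tamoxifen (SD, n = 3; log2 0.52 ± 0.12 SE, edgeR adjusted p = 0.00583) and was the 1 call of 5, where 13.6% of all tested genes were called (8.83% higher and 4.77% lower). All 12 alternatives called it, at 0.46 to 0.59. Fcgr2b was at -0.29 (edgeR adjusted p = 0.0537) and was called without the filter on low counts (-0.34, 0.0345), with DESeq2 (-0.29, 0.0285), with GC content and length corrected (-0.33, 0.0191) and without peak-tamoxifen Cre+ replicate 1 (-0.38, 0.0193). Fcer1g was called with GC content and length corrected (0.25, edgeR adjusted p = 0.0318) and Fcgr4 in a fit of the compared groups alone (-0.57, 0.0386). In Cre- microglia 0 of the 5 genes were called by edgeR or DESeq2 (0 at an unadjusted p under 0.05), where edgeR called 0.546% of all tested genes, with Fcgr1 at 0.10 and a 95% interval of -0.16 to 0.37.

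The genes of the pathway moved in both directions over the same states. In demyelination over naive, where 26.3% of all tested genes rose and 25.9% fell in Cre+ and 19.7% rose and 16.2% fell in Cre-, 15 of 21 genes below Syk fell and 3 rose in Cre+, and 9 fell and 4 rose in Cre-. Of the 11 braking enzyme genes 8 fell and 2 rose in Cre+, and 7 fell and 3 rose in Cre-. In start-tamoxifen remyelination relative to demyelination, 32.5% of all tested genes rose and 30.8% fell in Cre+, and 26.3% rose and 28.3% fell in Cre-. There 8 of the 11 braking enzyme genes rose and 2 fell in each genotype, while 5 of 5 oxidase genes fell in Cre+ and 4 of 5 in Cre-. The 9 other ITIM receptors had 6 lower and 3 higher into demyelination in each genotype.

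**Figure D4:**
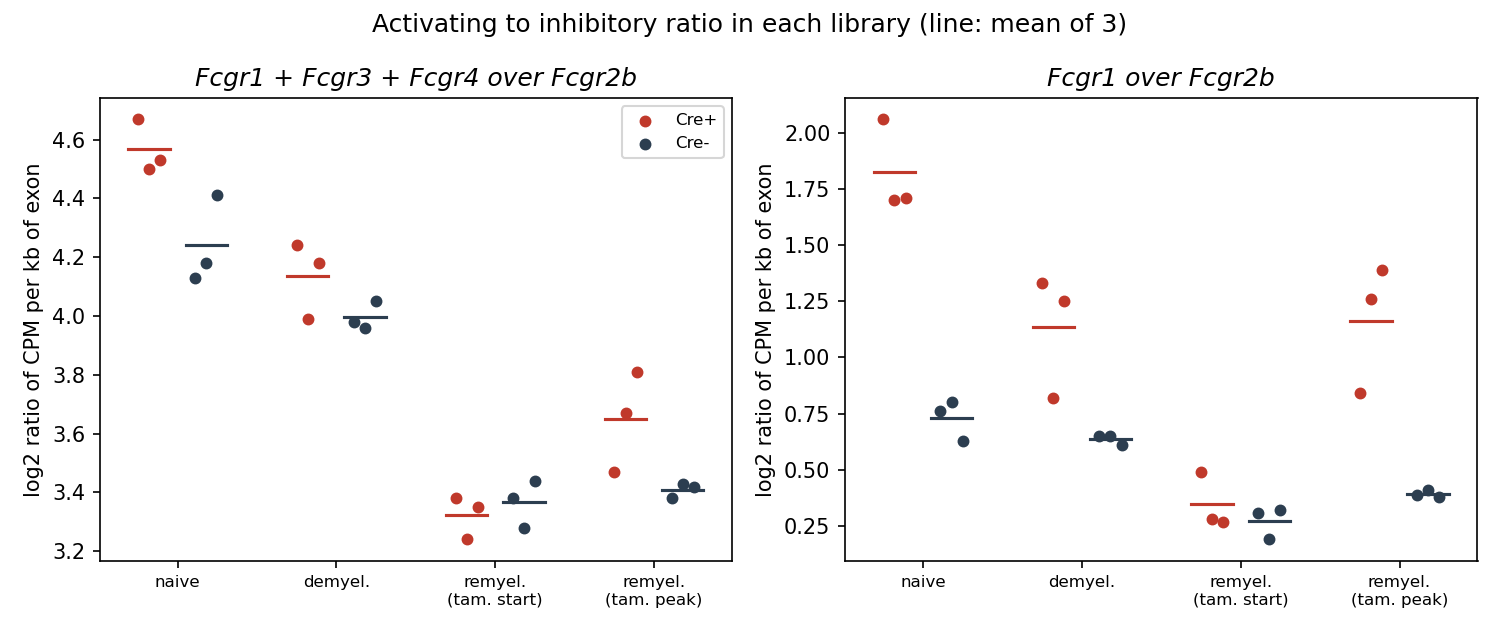
Log2 ratio of activating to inhibitory receptor transcripts per library (CPM per kilobase of exon), as the sum of Fcgr1, Fcgr3 and Fcgr4 over Fcgr2b and as Fcgr1 over Fcgr2b, with lines at the mean of 3. Cre+ libraries lie above Cre- libraries in naive and peak-tamoxifen groups in both panels, and in demyelination in the Fcgr1 panel.

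The balance of activating to inhibitory transcripts was expressed as the log2 ratio of the summed Fcgr1, Fcgr3 and Fcgr4 to Fcgr2b, each per kilobase of exon. It is a description of chosen members and carries no test. In naive microglia it was 4.57 ± 0.09 in Cre+ and 4.24 ± 0.15 in Cre- libraries (SD, n = 3), a difference of 0.33 without overlap. Fcgr3, most of the activating sum, held 1204 CPM per kilobase in naive Cre+ and 1661 in naive Cre- libraries, and Fcgr2b held 60.3 and 97.4. Fcgr1, also in the sum, held 214 CPM per kilobase in naive Cre+ and 162 in naive Cre- libraries. The higher naive ratio thus went with less Fcgr2b and more Fcgr1, and not with more Fcgr3. In demyelination the ratio was 4.14 ± 0.13 in Cre+ and 4.00 ± 0.05 in Cre- (0.14, with overlap). With start tamoxifen it was 3.33 ± 0.07 in Cre+ and 3.36 ± 0.08 in Cre- (-0.04), and with peak tamoxifen 3.65 ± 0.17 in Cre+ and 3.41 ± 0.03 in Cre- (0.24, without overlap). The difference was 0.27 in naive and -0.01 in demyelination without the low-Cx3cr1 libraries, the last from a single Cre+ library. Fcgr3 alone over Fcgr2b differed by 0.23 in naive, 0.07 in demyelination, -0.06 with start and 0.15 with peak tamoxifen, and the genotypes overlapped in every state.

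Fcgr3 makes up most of the activating sum, so Fcgr1 was also set against Fcgr2b alone. That log2 ratio was 1.82 ± 0.21 in Cre+ and 0.73 ± 0.09 in Cre- naive libraries, 1.14 ± 0.27 in Cre+ and 0.64 ± 0.02 in Cre- demyelination libraries, 0.35 ± 0.13 in Cre+ and 0.28 ± 0.07 in Cre- start-tamoxifen libraries, and 1.16 ± 0.29 in Cre+ and 0.40 ± 0.01 in Cre- peak-tamoxifen libraries. The genotypes overlapped only with start tamoxifen. In demyelination the Cre+ libraries were at 1.33, 0.82 and 1.25, of which the high values are the low-Cx3cr1 libraries. Without them the difference was 0.18 in place of 0.50, and in naive 0.97 in place of 1.09. Fcgr1 made up 16.3%, 14.3% and 14.2% of the activating sum in naive Cre+ libraries, against 9.65%, 9.59% and 7.28% in naive Cre- libraries. With peak tamoxifen it made up 16.2%, 18.8% and 18.6% in Cre+ libraries, against 12.6%, 12.4% and 12.2% in Cre- libraries. In demyelination it made up 13.3%, 11.1% and 13.2% in Cre+ libraries, against 9.95%, 10.1% and 9.22% in Cre- libraries. With start tamoxifen it made up 13.5%, 12.8% and 11.8% in Cre+ libraries, against 11.95%, 11.8% and 11.5% in Cre- libraries, where the genotypes overlapped.

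The members did not vary as one block. Across the 24 libraries, which share states, genotype and depth, Pearson's r of log2 CPM ran from 0.48 between Fcgr1 and Fcgr2b to 0.89 between Fcgr3 and Fcer1g. For deviations from the 8 group means it ran from 0.31, again between Fcgr1 and Fcgr2b, to 0.69 between Fcgr1 and Fcer1g. Among 9831 candidate genes the closest to Fcgr1 over the libraries were Vamp3, Sdf2 and Plxna4os1 (r 0.98), to Fcgr3 Tspan31, Selenos and Wdr61 (0.99), to Fcgr4 Bst2 and Aprt (0.98), to Fcer1g Snx3, Psmb8 and Atp6v0e (0.99) and to Fcgr2b Hilpda (0.98), Cd84 and Krtcap2 (0.97).

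Within groups the closest genes were others. By deviation from group means these were Srp14 for Fcgr1 (r 0.92), Arpc2 for Fcgr3 (0.96), Hspe1 for Fcgr4 (0.83), Gabarap for Fcer1g (0.93) and Itm2b for Fcgr2b (0.94). Selenos was among the 3 closest genes of Fcgr3, and Bst2 among those of Fcgr4, by both measures (0.92 and 0.78 by deviation). These values are descriptions over 24 libraries and carry no test.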

How the data were processed

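RNA of sorted microglia was measured in 24 libraries. The submitters' processing notes name Trimmomatic 0.36, STAR 2.5.2b, Subread 1.5.2 with featureCounts, DESeq2 and the build GRCm38, without their settings. The authors deposited whole-number counts per Ensembl gene. Whether counting used strand or kept multimapping reads is not given there.

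Of 49315 gene identifiers, 49056 matched GENCODE M21, which gave symbols, positions and exon lengths, and 259 did not. In R 4.3.3 with edgeR 4.0.16, filterByExpr over the 8 groups left 17579 genes, libraries were scaled by TMM, and 1 fit of group means to all 24 libraries (16 residual degrees of freedom) gave 15 comparisons by edgeR's quasi-likelihood test (2-sided). P-values were adjusted by Benjamini-Hochberg over all tested genes, with a threshold of 0.05, and measure the spread between these samples, which may be partly technical. P-values in parentheses without a label are adjusted ones from the same tool. The edgeR test was tried on simulated counts for naive Cre+ against naive Cre- only. The GC and length correction was not tried on simulated counts. GC content and length were known for 99.7% of tested genes. The replicates of every group differed by more than sampling noise. Fcgr4 had the lowest counts of the members, 132 to 3716 per library.

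The 5 members and all gene lists were chosen with earlier results of these data known. Named genes are the members, Dicer1 and Cx3cr1 as label checks, up to 4 called genes with the smallest p of each list in each genotype comparison, and for each member the 3 genes with the highest correlation of log2 CPM (prior count 2), or of deviations from group means, among genes with a symbol and a mean log2 CPM of at least 2; 1 gene named by this rule is not reported here. Alternatives were RLE size factors, no filter, DESeq2 1.42.0, a replicate block, only the compared groups, each library left out, the low-Cx3cr1 libraries left out, a GC and length correction and, for the ratio, other lengths and members. Transcript length for the ratio, and leaving out the low-Cx3cr1 libraries for the ratio and the surrounding gene lists, were added after seeing the data. The replicate numbers are not stated to pair samples, so the main fit has no block. Sequences are from GRCm38 with GENCODE M21 transcripts and from RefSeq (GRCm38.p6), where all 5 members matched. A longer interferon-stimulated response element was also searched in the promoters and left out after its matches were seen, since its letters could not be given.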

Additional observations from a re-analysis of the deposited data

Results flagged for a closer look

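The difference of the Cre+ minus Cre- effect between demyelination and naive passed the test for Fcgr2b (0.61), Fcgr3 (0.45) and Fcgr4 (1.11, all on the log2 scale, edgeR adjusted p = 0.00504, 0.0225 and 0.0261, n = 3 per group). Fcgr2b was lower in Cre+ than in Cre- libraries in all 3 naive replicates and overlapped in demyelination. For Fcer1g the difference between start-tamoxifen remyelination and demyelination passed the test at -0.56 (edgeR adjusted p = 0.0352), with Cre+ libraries above all Cre- libraries in demyelination and below all of them in remyelination. Of 19 alternatives for each of these differences, 10 lost the call of Fcer1g, 10 that of Fcgr4, 5 that of Fcgr3 and 0 that of Fcgr2b.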

How the results depend on the processing

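Fcgr2b in naive microglia and its difference between demyelination and naive, the fall of all 5 genes in start-tamoxifen remyelination relative to demyelination, and Fcgr1 with peak over start tamoxifen in Cre+ were called under every alternative run for them. Of 1025 values for single genes under alternatives, 902 kept direction and side of the threshold, 33 gained a call, 43 lost one and 47 turned direction. The cause of these changes was not tested. Fcgr4 had the lowest counts of the members.

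Counts of members called that moved by over 1.5 times, or to or from 0, were these. In demyelination (1 of 5) the count was 2 with RLE size factors, no filter or DESeq2, 0 without the low-Cx3cr1 libraries, and 0 to 2 with a library left out. With peak tamoxifen (1) it was 2 with no filter or GC and length corrected, 3 with DESeq2 and 0 to 2 with a library left out. With start tamoxifen (0) it was 1 with DESeq2. For the difference between demyelination and naive (3) it was 1 without the low-Cx3cr1 libraries or with GC and length corrected, and 1 to 4 with a library left out. For start tamoxifen minus demyelination (1) it was 2 with no filter, 0 without the low-Cx3cr1 libraries or with GC and length corrected, and 0 to 3 with a library left out. For peak over start tamoxifen in Cre+ (1) it was 2 with no filter, DESeq2 or the compared groups alone, 3 with GC and length corrected, and 1 to 2 with a library left out. For start tamoxifen over naive in Cre+ (3) it was 5 with the compared groups alone.

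The Cre+ minus Cre- difference of the ratio over Fcgr2b was 1.09 (naive), 0.50 (demyelination), 0.07 (start) and 0.77 (peak) for Fcgr1 alone, and 0.75 (demyelination), 0.10 (start) and -0.07 (peak) for Fcgr4 alone. Leaving out the low-Cx3cr1 libraries, chosen for the ratio after seeing the data, made it -0.01 in demyelination for the sum and -0.03 for Fcgr3 alone, and in naive 0.97 for Fcgr1 alone and 0.19 for Fcgr3 alone.

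These values turned direction. Fcgr3 in demyelination was 0.03 with RLE size factors or DESeq2 and 0.04 with no filter. With no filter Fcgr4 was 0.02 with start tamoxifen and -0.07 for start over naive in Cre-, and Fcgr3 was -0.02 for demyelination over naive in Cre-. Fcgr4 with start tamoxifen was 0.01 in the compared groups alone. Without the low-Cx3cr1 libraries Fcgr2b in demyelination was 0.00 and the difference of Fcgr1 between demyelination and naive -0.06. With GC and length corrected, Fcer1g was 0.19 in naive and 0.02 with peak tamoxifen, Fcgr4 0.07 with start tamoxifen, the demyelination minus naive differences of Fcgr1 and Fcer1g -0.16 and -0.06, demyelination over naive -0.02 for Fcgr1 in Cre+ and -0.12 (Cre+) and -0.26 (Cre-) for Fcgr3, and peak over start 0.03 for Fcgr3 in Cre+ and 0.01 for Fcgr4 in Cre-.

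With 1 library left out, values that turned direction ran between these bounds. In the Cre+ minus Cre- comparisons they were -0.05 to 0.02 for Fcgr3 in demyelination, and -0.10 to -0.00 for Fcgr1 and -0.13 to 0.06 for Fcgr4 with start tamoxifen. Among the differences of that effect they were -0.08 to 0.16 for Fcgr1 (demyelination minus naive), -0.11 to 0.02 for Fcgr2b (start minus demyelination) and -0.13 to 0.03 for Fcgr3 (peak minus start). Between states they were -0.03 to 0.06 for Fcgr3 in demyelination over naive and -0.10 to 0.13 for Fcgr4 in start over naive (both Cre-), -0.11 to 0.04 for Fcgr3 in peak over start in Cre+, and -0.07 to 0.07 for Fcgr3, -0.18 to 0.00 for Fcer1g and -0.11 to 0.03 for Fcgr2b in peak over start in Cre-.

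Over all genes, counts of calls moved by over 1.5 times as follows. In demyelination (1612) 81 were called without the low-Cx3cr1 libraries. With start tamoxifen (6) 81 were called with no filter, 65 with DESeq2 and 40 in the compared groups alone. For start tamoxifen minus demyelination (657) the counts were 1026, 1421 and 1062 in that order and 44 without the low-Cx3cr1 libraries. For peak over start tamoxifen in Cre- (96) they were 244, 226 and 180 in the same order. For the difference of the genotype effect between peak and start tamoxifen (662) DESeq2 called 996, and for demyelination minus naive (2769) 1625 were called without the low-Cx3cr1 libraries. With 1 library left out the counts ran from 422 to 2165 in demyelination, 1 to 7 with start and 853 to 2117 with peak tamoxifen, 89 to 1173 for start tamoxifen minus demyelination, 255 to 898 for the difference between peak and start tamoxifen, and 1341 to 2281 (Cre+, 2391 with all libraries) and 32 to 106 (Cre-) for peak over start. With RLE size factors, 72.8% of the calls in demyelination were higher (62.1% with TMM), and 62.7% of those for demyelination minus naive (50.6%).

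The replicate numbers do not pair the samples by the rule used. The correlation of deviations of same-numbered Cre+ and Cre- libraries across genes was 0.15, 0.29 and 0.08 with peak tamoxifen and -0.04 to 0.09 elsewhere, although in naive and peak-tamoxifen groups each Cre+ library correlated best with its own number. With the replicate block 2 members were called with peak tamoxifen, where Fcgr1 was 0.37 (edgeR adjusted p = 0.0338), and the difference of Fcgr4 between demyelination and naive was 1.08 (0.0937). The block changed no other call of a member.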
